A study of Mus musculus with 6 samples.

Results

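Bulk mRNA sequencing of cortical bone was read here for 9 genes of fatty acid oxidation and its control by the peroxisome proliferator-activated receptors (PPARs): Pdk4, Cpt1a, Cpt1b, Cpt2, Acadl, Acadm, Acadvl, Ucp3 and Angptl4. The members were taken by gene name from the deposited table, and all 9 were found among its 32000 genes. The mice behind the 6 libraries were C57BL/6J, male and 18 months of age, and carried no transgene. CD stands for 12 months on what the labels spell a chewing diet and the study's methods call standard chow (replicates 1, 2 and 4), and HFD for 12 months on a high-fat diet (replicates 2, 3 and 4). Neither the labels nor the methods tie a library to 1 animal, so a p-value here may reflect technical spread among libraries rather than spread among animals. All 9 genes passed the filter on low counts with 1073 to 99426 counts in a library. Levels of the members are compared between libraries mainly as normalised CPM (counts per mega-count of the library, scaled by TMM). FPKM, which allows for gene length but is not scaled by TMM, is used where genes are compared. Marker sums, the muscle level and some genes are also set side by side between libraries on FPKM. The scales can order libraries differently, as the TMM factor ran from 0.64 in CD 1 to 1.28 in HFD 3.

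Fatty acids that enter a cell are burned in the matrix of the mitochondria. Carnitine palmitoyltransferase 1 on the outer membrane couples long-chain acyl groups to carnitine and sets the pace of entry, and Cpt2 on the inner membrane returns them to coenzyme A. A series of acyl-CoA dehydrogenases, each for a range of chain lengths, then starts every round of beta-oxidation. Free fatty acids also bind PPARs, nuclear receptors that pair with the retinoid X receptor on DNA and switch on many of these same genes, in muscle, liver, heart and brown fat above all. In bone, osteoblasts and marrow cells oxidise fatty acids as well.

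The promoters are shown first, since PPARs bind a known element, a direct repeat of 2 copies of AGGTCA with 1 base between them. Windows of 250 bases before to 50 bases after the RefSeq start (build GRCm38.p6) were at hand for 7 of the 9 genes, not for Cpt1b and Angptl4. The repeat was searched on both strands with at most 3 mismatches in its 12 specified bases, and a lone AGGTCA without mismatch. A repeat was found in Ucp3 and Acadm, 2 of 7 windows, against 24.6% of all 32851 windows of the table. A lone AGGTCA was found in Ucp3, Acadm, Acadvl and Cpt1a, 4 of 7 windows, against 16.3% of all windows. Neither was found in the windows of Pdk4, Cpt2 and Acadl. That does not show that these genes lack an element, as sequence outside the windows was not searched. A match is a run of letters and not a shown binding site. Ucp3 and Acadm are printed as the windows with a repeat, and Cpt1a as that of the gene whose normalised levels lay apart between the diets, all 5′ to 3′ on the strand of the gene with every match in capitals. The Ucp3 window is chr7:100472741-100473040 on the plus strand, that of Acadm chr3:153944594-153944893 on the minus strand and that of Cpt1a chr19:3323051-3323350 on the plus strand.
Ucp3: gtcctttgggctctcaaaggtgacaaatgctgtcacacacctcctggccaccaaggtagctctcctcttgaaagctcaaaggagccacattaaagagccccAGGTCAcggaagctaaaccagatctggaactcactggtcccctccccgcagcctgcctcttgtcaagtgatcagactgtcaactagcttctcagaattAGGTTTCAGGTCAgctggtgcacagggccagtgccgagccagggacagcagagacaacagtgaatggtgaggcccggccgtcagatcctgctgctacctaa
Acadm: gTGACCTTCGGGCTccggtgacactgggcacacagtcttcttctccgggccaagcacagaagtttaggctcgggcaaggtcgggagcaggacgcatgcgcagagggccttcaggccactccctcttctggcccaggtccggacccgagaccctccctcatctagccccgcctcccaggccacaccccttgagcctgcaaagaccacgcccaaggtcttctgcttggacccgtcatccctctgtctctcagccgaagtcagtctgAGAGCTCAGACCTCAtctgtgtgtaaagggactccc
Cpt1a: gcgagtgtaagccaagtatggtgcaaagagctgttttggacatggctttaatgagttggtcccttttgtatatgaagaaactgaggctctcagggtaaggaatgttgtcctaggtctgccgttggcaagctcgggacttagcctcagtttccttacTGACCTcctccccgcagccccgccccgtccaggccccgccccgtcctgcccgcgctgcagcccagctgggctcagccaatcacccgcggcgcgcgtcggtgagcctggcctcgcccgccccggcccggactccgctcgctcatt
Counted from the start as +1, the Ucp3 repeat AGGTTTCAGGTCA ran from −51 to −39 on the strand of the gene with 2 mismatches, and 3.86% of all windows held a repeat that close. A lone AGGTCA stood at −149 to −144 and another formed the second part of that repeat. In Acadm each of 3 matches had 3 mismatches, 1 from −249 to −237 on the opposite strand and an overlapping pair, 1 on each strand, from +15 to +29. The lone AGGTCA of Cpt1a lay from −94 to −89 on the opposite strand, and the RefSeq start of this gene lies inside the span the deposited table gives it.

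Across the diets, 7 of the 9 genes had a higher mean level in HFD and none passed the test. The largest differences were those of Acadl, with a log2 fold change (HFD minus CD, ± SE) of 0.98 ± 0.48, and of Pdk4, with 0.93 ± 0.82. Ucp3 and Angptl4 had the lower mean in HFD, at −0.72 ± 0.79 and −0.39 ± 0.37. The median over the 9 genes was 0.53, beside −0.031 over all 19831 tested genes, of which 47.5% had a positive value. Without HFD 2 the median of the 9 was 0.075 and 5 of 9 values were positive, and without CD 1 it was 1.06. Without CD 2 it was 0.26 and without HFD 3 0.85. By edgeR's quasi-likelihood test with Benjamini-Hochberg adjustment the smallest adjusted p among the 9 was 0.56 and 0 of 9 passed 0.05, where 0% of all genes did. At an unadjusted p under 0.05 the count was again 0 of 9, beside 2.46% of all genes higher and 7.2% lower. DESeq2 passed 0 of 9, with a smallest adjusted p of 0.39, and 1.65% of all genes, and limma on log2(FPKM + 1) passed 0 of 9 and 0.0669% of all genes. At 3 libraries against 3 an exact permutation test cannot go below p = 0.1.

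The libraries differed in the markers they held. All 16 listed skeletal muscle markers were tested and none was at 0 in a library. Their summed FPKM was 8546 to 30313 in CD and 4558 to 20553 in HFD, highest in CD 1 and lowest in HFD 3. The bone markers Col1a1 and Dmp1 were present in every library, as the tissue label asks, and the summed FPKM of the 10 bone lineage genes was 625 to 8688 in CD and 331 to 1039 in HFD. Of these 10, 8 had the lower and 2 the higher mean under HFD, with a median log2 fold change of −2.11. By edgeR 0 of 10 passed, and 7 were lower at an unadjusted p under 0.05, beside 7.2% of all genes. DESeq2 passed 4 of 10, beside 1.65% of all genes. Of 10 intestinal epithelium genes, all but Lgals4 (FPKM 2.53 and 4.74) were at or near 0 in CD 1 and CD 2, where Lypd8 and Cdx2 were listed at 0, and the summed FPKM was 2.72 to 60.3 in CD and 69.1 to 76.6 in HFD. The 8 adipocyte genes summed to 34.1 to 79.0 in CD and 51.6 to 116 in HFD. Of the 8, 4 had the higher and 4 the lower mean under HFD, with a median log2 fold change of −0.076. Pnpla2, which other tissues also express, made up 84.2 of the 116 in HFD 2, and Cfd was lower in every HFD library (log2 fold change −1.75). Marrow cell lists varied too, with no marker at 0. The 8 monocyte and macrophage genes summed to 452 to 1753 in CD and 737 to 2132 in HFD, the 8 neutrophil genes to 2541 to 12088 and 3930 to 14400 and the 7 erythroid genes to 5095 to 21924 and 10961 to 42716. Among markers of other tissues that use these enzymes, the defining brown fat gene Ucp1 was at 0 in all but HFD 2 (FPKM 0.024), while Cidea of the same list was at 0.224 to 0.409 in CD and 0.376 to 4.76 in HFD, highest in HFD 2. The liver gene Alb was at 0 to 0.106 and Ttr, the highest of that list, at 0 to 3.18. The heart gene Nppa was at 0 to 0.702 and Tnni3 at 0.141 to 1.37. The total count per library was 54.5 to 61.6 M (mega-counts), and mitochondrially encoded genes took 15.3% to 38.6% of them. In bulk tissue, fewer cells of a type and less RNA per cell cannot be told apart.

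**Figure D1:**
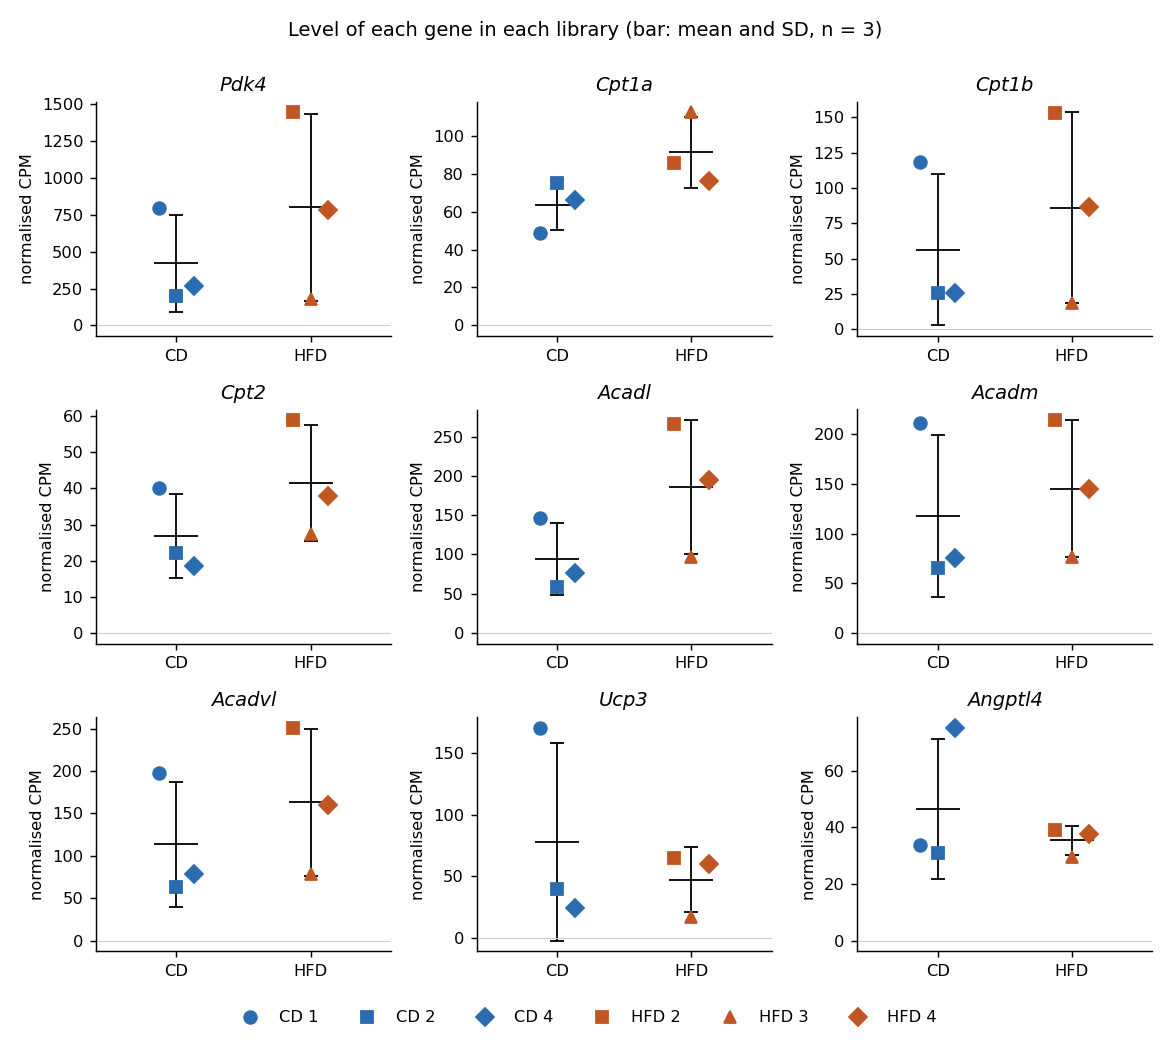
Normalised CPM of each of the 9 genes (y axis, linear from 0) in the CD (blue) and HFD (orange) libraries, 1 symbol per library, with the mean and SD of each group in black (n = 3). HFD 2 was the highest library for 6 of the 9 genes, HFD 3 lay with the lowest CD libraries for most, and the groups are apart only for Cpt1a.

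Pdk4 encodes the kinase that switches off pyruvate dehydrogenase, so that acetyl-CoA comes from fat rather than glucose (chromosome 6, 5483351 to 5496309, minus strand). It was the most abundant of the 9 by FPKM in every library, at 128, 60.7 and 62.1 in CD 1, CD 2 and CD 4 and, for HFD 2, HFD 3 and HFD 4, at 453, 56.3 and 164. Its normalised CPM was 799, 196 and 265 in the CD libraries and 1445, 177 and 784 in the HFD libraries. The highest value of all and the lowest of all were thus both from HFD mice, and CD 1 was close to HFD 4. The means were 420 ± 330 and 802 ± 634 CPM (SD, n = 3), and the adjusted p by edgeR was 0.74. With each library left out, the log2 fold change of Pdk4 ran from 0.20 (without HFD 2) to 1.83 (without CD 1).

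Cpt1a and Cpt1b encode the liver and the muscle form of carnitine palmitoyltransferase 1. Cpt1a (chromosome 19, 3322334 to 3385733, plus strand) was at 49.0, 75.1 and 66.0 CPM in CD 1, CD 2 and CD 4 and at 85.6, 113 and 76.4 in HFD 2, HFD 3 and HFD 4. Every HFD library was above every CD library, by a narrow gap between CD 2 and HFD 4. The means were 63.4 ± 13.2 and 91.5 ± 18.8 CPM (SD, n = 3), a log2 fold change of 0.53 ± 0.26 with an adjusted p of 0.56 by edgeR. Cpt1a was the 1 gene of 9 whose groups did not overlap in this direction, beside 4.97% of all tested genes, and no member lay apart in the other direction, beside 10.2%. Without CD 1 the count was 4 of 9 (all higher), beside 27.2% of all genes apart in either direction with those libraries, and without HFD 3 it was 2, beside 21%. It stayed at 1 without CD 2, CD 4, HFD 2 or HFD 4, beside 34.7%, 20.9%, 20.6% and 31.8% of all genes. The summed FPKM of the monocyte and macrophage markers ran in a similar order, at 452, 1753 and 584 in CD and 1995, 2132 and 737 in HFD. CD 1 was lowest and HFD 3 highest, as for Cpt1a. Most of that sum was Lyz2 (387, 1551 and 443 in CD and 1757, 1883 and 640 in HFD). Of the 8 markers, 5 had the higher and 3 the lower mean under HFD, and Cd68 and Csf1r were highest in CD 4. The part of these cells in the result was not tested. The order of Cpt1a depends on the scaling, as its FPKM overlapped, with 3.60, 10.7 and 7.10 in CD against 12.3, 16.4 and 7.34 in HFD. Cpt1b (chromosome 15, 89416405 to 89425863, minus strand) spread more widely, with 118, 25.5 and 25.5 CPM in CD and 153, 18.5 and 86.2 in HFD. CD 1, HFD 2 and HFD 4 were high, the other 3 low, and the mean of 56.4 ± 53.6 in CD and 86.0 ± 67.3 in HFD (SD, n = 3) came with a log2 fold change of 0.61 ± 0.85. That value was −0.11 without HFD 2 and 1.79 without CD 1. The read-through gene Gm44502 covers the whole span of Cpt1b on the same strand, so that their reads may be shared, and it held 79 to 564 counts in a library.

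The ratio of the muscle to the liver form varied more within each diet than between the means of the diets. Cpt1b over Cpt1a in FPKM was 5.47 in CD 1, 0.770 in CD 2 and 0.874 in CD 4, and HFD 2, HFD 3 and HFD 4 had ratios of 4.06, 0.373 and 2.56. The muscle form outweighed the liver form in CD 1, HFD 2 and HFD 4 only. On the log2 scale the means were 0.63 ± 1.58 and 0.65 ± 1.83 (SD, n = 3), with a difference of 0.025 (exact two-sided permutation test, p = 1). That difference was −0.66 without HFD 2, 0.94 without CD 1 and 1.06 without HFD 3.

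Cpt2 encodes the inner membrane partner (chromosome 4, 107903981 to 107923610, minus strand). It was at 40.0, 22.0 and 18.5 CPM in CD 1, CD 2 and CD 4 and at 58.9, 27.3 and 37.9 in HFD 2, HFD 3 and HFD 4, a log2 fold change of 0.63 ± 0.39, which was 0.28 without HFD 2 and 1.06 without CD 1. CD 1 lay above HFD 3 and HFD 4, so the groups overlapped. On the FPKM scale they did not, with 6.36 to 10.03 in CD and 11.7 to 27.1 in HFD.

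The 3 acyl-CoA dehydrogenases act on very long (Acadvl), long (Acadl) and medium chains (Acadm). Acadl (chromosome 1, 66830839 to 66863277, minus strand) was at 146, 59.1 and 76.9 CPM in CD and at 266, 96.7 and 194 in HFD. CD 1 lay between HFD 3 and HFD 4, and the other CD libraries were below all HFD libraries. The means were 94.0 ± 45.8 and 186 ± 85.1 CPM (SD, n = 3), and Acadl had the smallest unadjusted p of the 9 (0.076, adjusted 0.56, edgeR). Its log2 fold change was 0.63 without HFD 2 and 1.47 without CD 1. By FPKM the groups were apart, at 40.9, 32.1 and 31.6 in CD and 146, 53.7 and 71.2 in HFD. Acadl and Cpt2 were the 2 of 9 genes apart on the FPKM scale, where 4.05% of all tested genes were higher in every HFD library.

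Acadvl (chromosome 11, 70010183 to 70015411, minus strand) and Acadm (chromosome 3, 153922357 to 153944632, minus strand) were likewise highest in HFD 2 and lowest in CD 2, and overlapped more between the diets. Acadvl was at 197, 63.8 and 78.9 CPM in CD and at 251, 78.1 and 160 in HFD (0.53 ± 0.56). Acadm was at 212, 65.9 and 75.6 CPM in CD and at 214, 76.3 and 145 in HFD (0.30 ± 0.55). On normalised CPM, CD 1 matched HFD 2 for Acadm, while its FPKM was 30.4 in CD 1 and 60.3 in HFD 2. Both genes lost most of the difference without HFD 2, at 0.075 for Acadvl and −0.085 for Acadm. Without CD 1 the values were 1.22 and 1.06. The end of Acadvl overlaps Dvl2 on the opposite strand, and the use of strand in counting is not settled.

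Ucp3 encodes an inner membrane carrier of muscle and brown fat that rises with fatty acid supply (chromosome 7, 100472990 to 100486432, plus strand). It was at 170, 39.8 and 24.1 CPM in CD and at 64.6, 17.4 and 59.9 in HFD. CD 1 was far above all others, and the remaining CD libraries fell between HFD 3 and HFD 4. The means were 78.1 ± 80.3 and 47.3 ± 26.0 CPM (SD, n = 3), and the log2 fold change was −0.72 with all libraries and 0.60 without CD 1. The antisense gene Gm10603 overlaps its start, with 133 to 846 counts in a library.

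Angptl4 encodes a secreted inhibitor of lipoprotein lipase and a PPAR target in many cell types (chromosome 17, 33773750 to 33781830, minus strand). It was at 33.7, 31.1 and 75.1 CPM in CD and at 39.2, 29.7 and 37.7 in HFD. CD 4 stood above the rest, and the other 5 lay between 29.7 and 39.2. The log2 fold change was −0.39 with CD 4 and 0.20 without it.

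**Figure D2:**
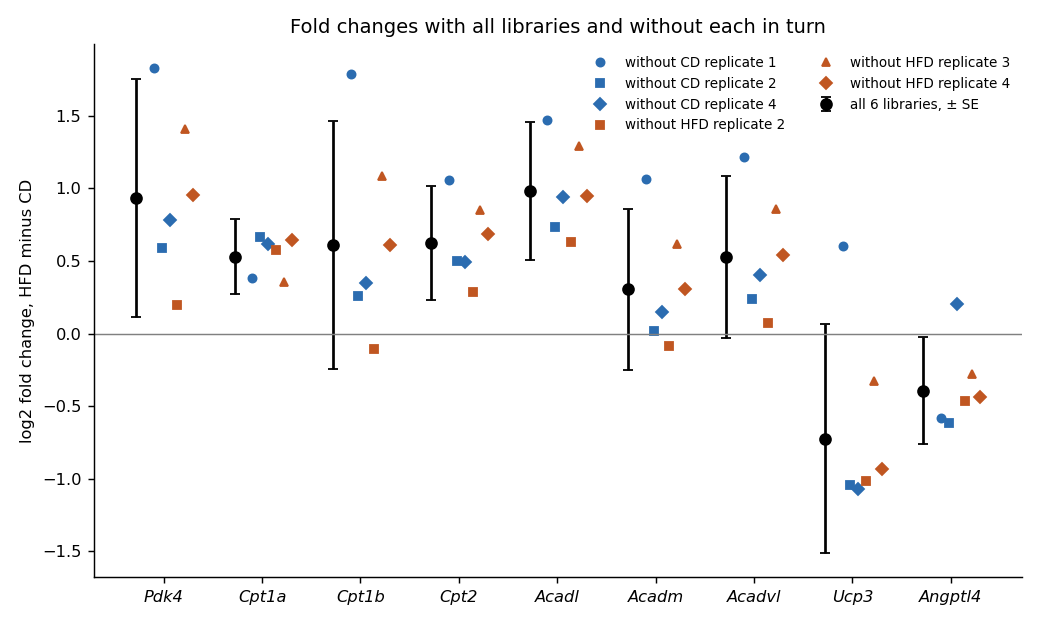
Log2 fold change (HFD minus CD, y axis) of each gene from edgeR with all 6 libraries (black, ± SE) and without each library in turn (blue, a CD library left out; orange, an HFD library left out). Leaving out CD 1 raised every gene but Cpt1a and Angptl4 and turned Ucp3 positive, while leaving out HFD 2 brought Cpt1b and Acadm below 0.

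Set side by side, 6 of the genes shared 1 pattern over the libraries. In log2 CPM, the 15 pairs among Pdk4, Cpt1b, Cpt2, Acadl, Acadm and Acadvl had a Pearson r of 0.88 to 0.99 over 6 libraries. Ucp3 followed them less closely (r of 0.54 to 0.85). Cpt1a had a negative r with every other member (−0.74 to −0.0014), and that of Angptl4 with the others ran from −0.37 to 0.0010. These are descriptions, since the points share libraries and scaling factors. The genes most similar to each member, among 9857 with a mean log2 CPM of at least 3, were in part enzymes of the same route. As the top 3 of so many over 6 libraries they can reach a high r by selection, and how many route enzymes to await was not worked out. For Pdk4 these included Fhl3 and Eci1, for Acadl they were Ech1, Mlycd and Hadhb, and for Acadm Acat1, Pdk1 and Coq3, with r of 0.988 to 0.999. Eci1 and Ech1 are isomerases for unsaturated chains, and Hadhb is the beta subunit of the trifunctional protein. Cpt1b was closest to Fitm2, Pex11a and Gpam, Cpt2 to Mtm1, Retsat and Acsl1, and Acadvl to Agpat3, Rdm1 and Eci1. Ucp3 was closest to Nrd1, Poll and Lpin1. Cpt1a was closest to Tfec, Vps33b and Bahd1, and Angptl4 to Mcfd2, Ndfip2 and Galnt11.

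The order of the libraries in that pattern was near that of the skeletal muscle markers when these were taken as a mean of logs. The mean log2 FPKM of the 16 muscle markers was 8.83, 7.36 and 8.18 in CD 1, CD 2 and CD 4 and 9.41, 7.03 and 8.79 in HFD 2, HFD 3 and HFD 4. Its group means were 8.12 in CD and 8.41 in HFD. In the edgeR fit, however, 12 of the 16 markers had the lower mean in HFD and 4 the higher. Their median log2 fold change was −0.89, beside 0.53 for the 9 members. CD 1, HFD 2 and HFD 4, the libraries high in muscle RNA, were also those high in Pdk4, Cpt1b, Acadm and Acadvl, and Cpt1a was lowest in CD 1 and highest in HFD 3. The markers did not all move alike, and HFD 2 led in that mean but not in most of them. The mean is on FPKM, without TMM scaling, while the pattern of the members was described in log2 CPM. The lead of HFD 2 over CD 1 may therefore not hold on normalised CPM. Atp2a1, for one, was at an FPKM of 2474 in CD 1 and 2510 in HFD 2 but at 15315 and 7922 CPM. By normalised CPM 3 of the 16 were highest in HFD 2, and the summed FPKM was 30313 in CD 1 against 20553 in HFD 2. The fast-fibre myosin Myh4 was highest in CD 1 (FPKM 2417, against 1080 in HFD 2). Myosins of oxidative fibres were highest in HFD 2, with Myh2 at 194 against 13.8 in CD 1 and Myh7 at 29.8 against 0.213. The muscle list was also a covariate in edgeR, there as its mean log2 normalised CPM and not the FPKM mean above. With it, the log2 fold change of Acadl stayed at 0.98 with an SE of 0.20 in place of 0.48 (edgeR, unadjusted p = 0.0025, adjusted p = 0.24). Cpt1a was at 0.53 ± 0.16 (edgeR, adjusted p = 0.24), Pdk4 at 0.78 ± 0.35 and Ucp3 at −0.62 ± 0.46, and 0 of 9 genes passed. The part of muscle content in these differences was not tested by this fit. When each gene was divided by the muscle markers of its own library, a comparison chosen after seeing the data, no member was apart between the diets, beside 0.427% of 18522 genes that were higher in every HFD library. Pdk4 came closest, with CD 2 and HFD 4 level at −1.43 on the log2 scale and means of −1.83 in CD and −1.08 in HFD. Acadl had means of −3.01 and −2.04, and CD 2 overlapped with HFD 4 alone.

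**Figure D3:**
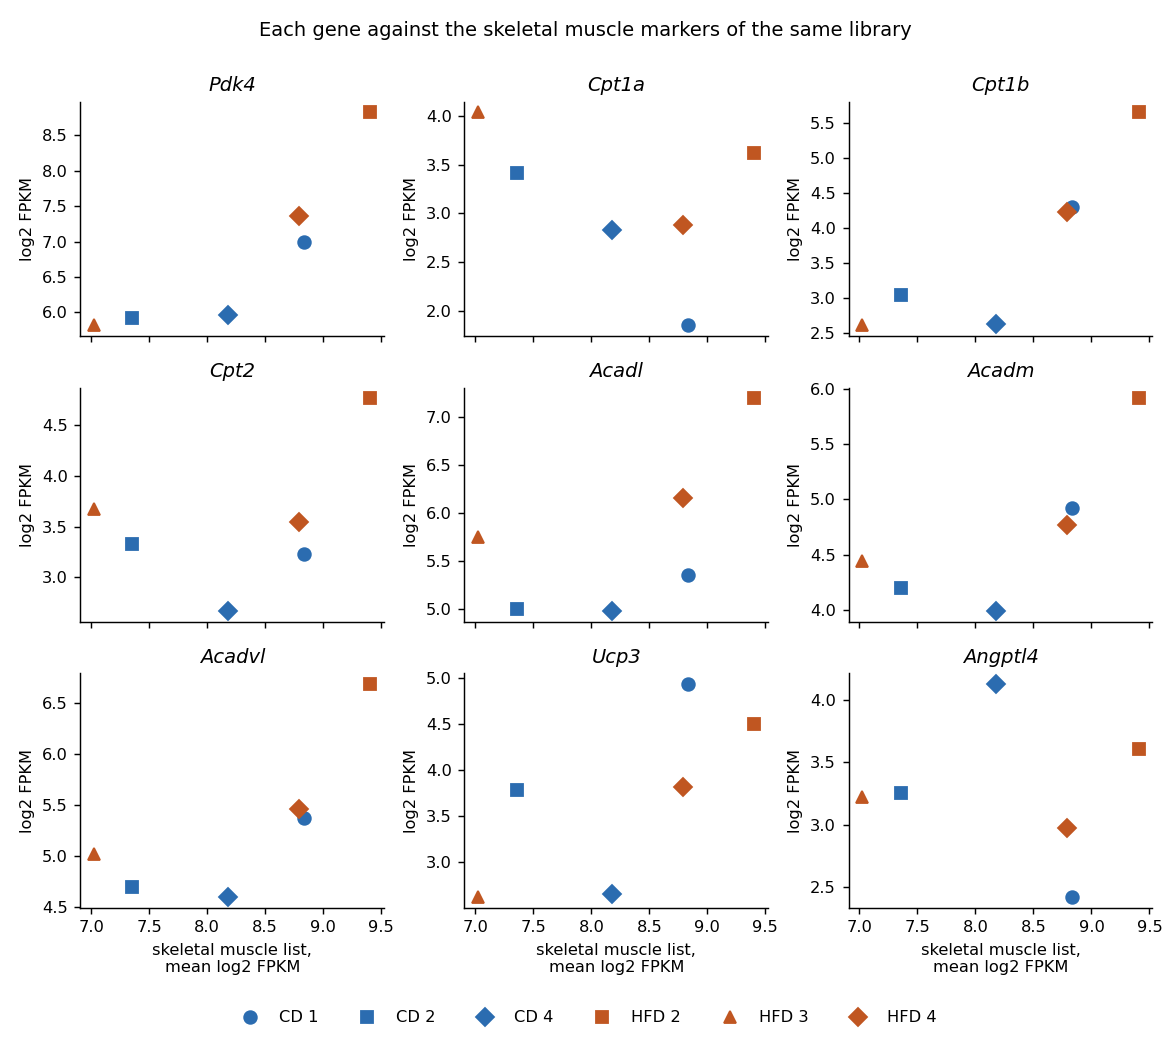
Log2 FPKM of each gene (y axis) against the mean log2 FPKM of 16 skeletal muscle markers in the same library (x axis), 1 point per library (CD blue, HFD orange). Pdk4, Cpt1b, Acadm and Acadvl were highest in HFD 2, which is at 9.41 on the x axis, and for Acadl the 3 HFD points lie above the 3 CD points.

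Beyond the 9 members, 98 further genes in 9 pathway lists were all found in the table and 93 were tested. None passed in either direction by edgeR. At an unadjusted p under 0.05, 6 of the 93 were higher and 6 lower, beside 2.46% and 7.2% of all tested genes. The groups did not overlap for 4 higher and 7 lower genes, beside 4.97% and 10.2%. DESeq2 passed 4 of the 93, beside 1.65% of all genes, and they were chosen here after their values were seen. They are the acyl-CoA thioesterases Acot1 and Acot2, the lipid droplet protein Plin5 (all higher) and the AMP-activated kinase subunit Prkag3 (lower). Acot1 and Acot2 are near-identical, so reads may be split between them.

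Within mitochondria, 12 of 15 beta-oxidation genes had the higher mean in HFD, with a median of 0.52, close to that of the members. Of all 15, 13 were highest in HFD 2, as were 6 of the 9 members and 10.3% of all tested genes. Etfb, an electron acceptor subunit for the dehydrogenases and the most abundant of the list, was at 0.60 ± 0.36, and Acaa2, the thiolase that ends a round, had the smallest p at 0.90 ± 0.46 (adjusted p = 0.58, edgeR). All 10 peroxisomal genes had the higher mean in HFD by little (median 0.24), among them the thiolase and carrier gene Scp2 (0.24 ± 0.26) and Acaa1b (0.84 ± 0.48), which has a close copy in Acaa1a.

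The genes of the carnitine shuttle and of its malonyl-CoA brake gave no common direction, with medians of −0.074 over 5 and −0.23 over 10 genes. Crat, which buffers acetyl groups with carnitine, was the most abundant in the shuttle list (0.094 ± 0.60). The brain form Cpt1c was at 7.75, 7.87 and 12.3 CPM in CD and at 2.59, 3.03 and 6.33 in HFD (−1.23 ± 0.42, adjusted p = 0.47, edgeR). Its groups were apart on CPM in the direction opposite to Cpt1a and overlapped on FPKM. In the malonyl-CoA list Prkag1 was most abundant (0.19 ± 0.23). Prkag3, the gamma subunit of fast muscle, had an FPKM of 16.4, 8.77 and 3.90 in CD and of 1.31, 0.391 and 1.32 in HFD (−3.65 ± 0.86, adjusted p = 0.47, edgeR). Every HFD library lay below every CD library, and the fast-fibre myosin Myh4 was at an FPKM of 2417, 1222 and 438 in CD and 1080, 214 and 790 in HFD. The part of fibre content in the Prkag3 difference was not tested.

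Around pyruvate dehydrogenase, the enzyme Pdk4 inhibits, the median was −0.17 over 13 genes and 9 had the lower mean in HFD. The most abundant, the catalytic subunit Pdha1, was at −0.086 ± 0.54, and the phosphatase Pdp2, which reverses the kinases, had the smallest p at 0.89 ± 0.38 (adjusted p = 0.52, edgeR). Among the 16 PPAR receptors and cofactors, 14 had the lower mean in HFD and the median was −0.16. Ppara was low throughout (FPKM 0.065 to 0.373). Pparg, the receptor of fat cells and macrophages, was at 10.9, 8.54 and 8.39 CPM in CD and at 17.0, 15.2 and 11.5 in HFD (0.65 ± 0.25, adjusted p = 0.48, edgeR). Its groups did not overlap on CPM and did on FPKM. The most abundant of the list was the orphan receptor gene Esrra (−0.057 ± 0.41).

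Of 16 other PPAR target genes tested, 12 had the higher mean in HFD with a median of 0.58. Fabp3, the fatty acid binding protein of heart and muscle and the most abundant, had an FPKM of 112, 27.3 and 87.1 in CD and 937, 131 and 306 in HFD. Its CPM overlapped between the groups, and the log2 fold change was 2.07 ± 0.89 (adjusted p = 0.52, edgeR). Acot1 had the smallest p of the list, with 3.38, 2.30 and 1.81 CPM in CD and 29.8, 11.1 and 13.4 in HFD. In the lipoprotein lipase axis, on which Angptl4 acts, Lpl itself was at 241, 88.0 and 147 CPM in CD and at 599, 144 and 300 in HFD (1.13 ± 0.58), with HFD 2 highest. Apoc2, the activator of the lipase, was at 1.97 ± 0.69 (adjusted p = 0.47, edgeR). Of the other uncoupling proteins, Ucp2, the form of spleen and immune cells, was most abundant at 0.79 ± 0.41, and Slc25a27 was at −1.14 ± 0.47 (adjusted p = 0.51, edgeR).

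**Figure D4:**
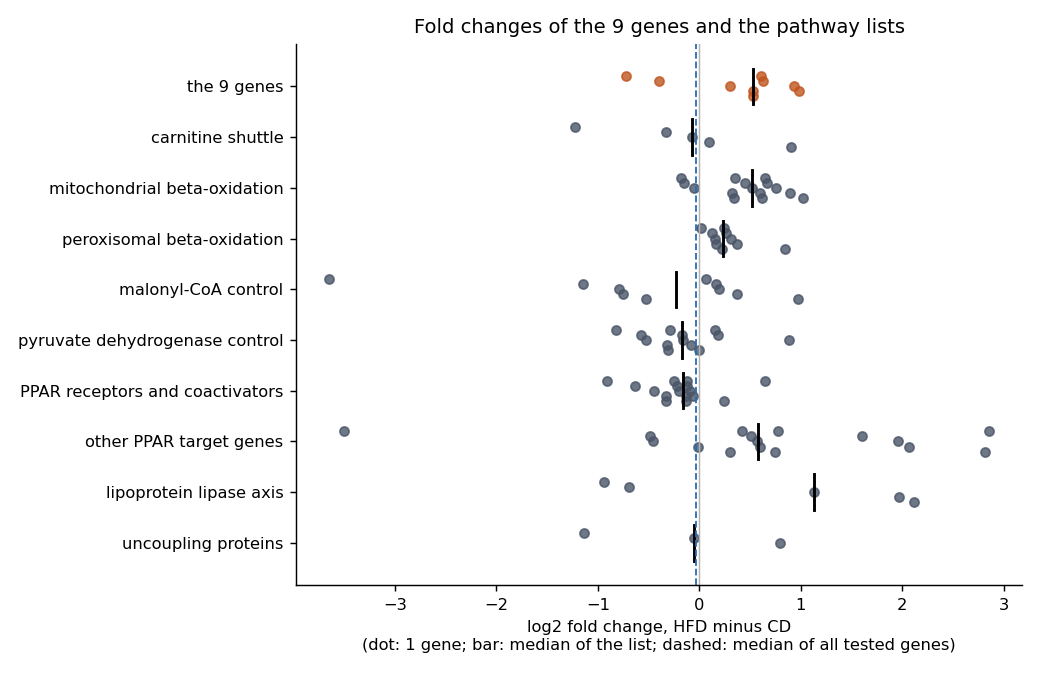
Log2 fold change (HFD minus CD, x axis) of the 9 genes (orange) and of the tested genes of 9 pathway lists (grey), 1 dot per gene, with the list median as a black bar and the median of all tested genes (−0.031) dashed. The 9 genes, mitochondrial beta-oxidation and other PPAR targets have medians of 0.53, 0.52 and 0.58, and the receptors and cofactors one of −0.16.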

How the data were processed

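Cortical bone from CD and HFD mice (3 libraries each, grouped by the labels) was profiled by mRNA sequencing with strand-marked libraries carrying molecular identifiers. The authors deposited 1 table with gene counts and FPKM per library, which gives each gene's position, and no other per-sample columns were present. Tools listed in the submitters' notes are HISAT2 2.0.4, StringTie 1.3.4d, edgeR, DESeq2, UMI-tools and cutadapt 1.9, and the study's methods give another aligner and counter on GRCm38. How the counts were made, and whether by strand, is therefore not settled, so reads of overlapping or antisense genes and close copies may be mixed. The labels call the tissue cortical bone, while the methods speak of bone marrow cells.

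Counts were tested over the whole table with edgeR 4.0.16 in R 4.3.3 (quasi-likelihood test on counts scaled by TMM, genes kept by filterByExpr at 10 counts, Benjamini-Hochberg threshold of 0.05), which left 19831 genes. DESeq2 1.42.0 and limma 3.58.1 on log2(FPKM + 1), with an FPKM of at least 0.5 in 3 libraries, served as alternatives, with other scalings, no filter, marker covariates, a replicate block and each library left out. The test was checked on simulated counts. No pair of libraries within a group agreed within sampling noise. The members and lists were chosen with earlier results of these data known. Named genes are the 9 members, the most abundant and the smallest-p gene of each pathway list, and the 3 genes most correlated with each member. Ppara, Acot2, Plin5 and the marker genes were named after their values were seen. A gene that this rule names for Pdk4 is not reported here.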

Additional observations from a re-analysis of the deposited data

How the results depend on the processing

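No member passed under any setting run, and Pdk4, Cpt1a, Cpt2, Acadl and Acadvl kept a higher mean in HFD in all 18. The count of called genes over the whole table rose from 0 to 342 by DESeq2, 10 by limma on log2(FPKM + 1) and 7 with a pseudocount of 0.1, was 0 of 32000 by limma with no filter on low FPKM, and ranged from 0 to 24 with each library left out, the 24 without CD 4. Pathway genes called rose from 0 to 4 by DESeq2 and 1 by limma. With the intestinal list as a covariate Ucp3 turned to 0.86, Angptl4 was at −1.09, Cpt1b at 1.65 and the median of the members at 0.97. Only CD 4, with a summed FPKM of 60.3 for that list, came near the HFD range of 69.1 to 76.6. The remaining CD libraries reached at most 4.97. This covariate thus nearly followed the diet, and the adjusted differences lean on CD 4, the library highest in Angptl4 (75.1 CPM). A diet effect apart from that list was therefore not tested by this fit. Leaving out each library gave −1.07 to 0.60 for Ucp3 (0.60 without CD 1), −0.62 to 0.20 for Angptl4, −0.11 to 1.79 for Cpt1b, −0.085 to 1.06 for Acadm, 0.075 to 1.06 for the median of the members (0.075 without HFD 2), and −0.66 to 1.06 for the log2 difference of the Cpt1b to Cpt1a ratio. The cause was not tested. Members with groups apart numbered 1 on CPM, 2 on FPKM and 0 relative to muscle, and 1 to 4 with each library left out (4 without CD 1), where 20.6% to 34.7% of all genes were apart. With at most 2 mismatches 1 promoter window held the repeat. On the FPKM scale the median of all genes was itself 0.19, so the members' median of 0.79 there stands beside 0.53 on the CPM scale. Each member had at least 1073 counts in every library.

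With the replicate number as a block, 0 members and 0 pathway genes passed. The median of the members was then 1.32, Ucp3 was at 1.01 and the log2 difference of the Cpt1b to Cpt1a ratio at 1.97. Both groups share only the numbers 2 and 4, which leaves CD 1 and HFD 3 out of the diet difference. Deviations of same-numbered libraries correlated at −0.16 and 0.18, within the range of −0.36 to 0.45 for pairs with different numbers. So few pairs cannot show whether same-numbered samples share more than a number.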

Other observations

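A pair of libraries from different diets had nearly the same mean log2 FPKM of the muscle markers, 8.83 in CD 1 and 8.79 in HFD 4, and was picked for this after the values were seen. Between them, the FPKM of Cpt1b (19.7 and 18.8), Acadm (30.4 and 27.3) and Acadvl (41.3 and 43.9) was close, Acadl was 40.9 in CD 1 and 71.2 in HFD 4, Pdk4 128 and 164, and Ucp3 30.5 and 14.0. Which genes were close depended on the scale: on normalised CPM, Pdk4 was 799 in CD 1 and 784 in HFD 4, while Cpt1b (118 and 86.2), Acadm (212 and 145) and Acadvl (197 and 160) were higher in CD 1. The pair was not alike in summed muscle FPKM (30313 and 15186). As it was picked on FPKM, it need not be matched in the muscle markers on normalised CPM. These are values of single libraries, with no test.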
